A study of Mus musculus with 8 samples.

Results

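The platelet-derived growth factor (PDGF) genes comprise 4 ligand genes, Pdgfa, Pdgfb, Pdgfc and Pdgfd, and 2 receptor genes, Pdgfra and Pdgfrb. All 6 of these named genes were found among the 21887 protein-coding genes of the RefSeq annotation on the chromosomes of the peak lists, and they are members by name, not by a peak value. The data are chromatin immunoprecipitation sequencing (ChIP-seq) peak lists from mouse embryonic fibroblasts, primary cells of C57BL/6 embryos (stage E15.5) used at passage 2 to 4. The series has 8 libraries, from Hmga2 knockout and Hmga2 wild-type cells, with antibodies to HMGA2, γ-H2AX (H2AXS139ph in the labels) and ATM and with input DNA, 1 library for each antibody and genotype. Only the wild-type lists of HMGA2, γ-H2AX and ATM were used. Libraries of knockout cells and of input DNA were not used here, so no comparison with cells that lack HMGA2 or with input was made here. Whether the authors called their peaks against input is not given in the sources used here.

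PDGF ligands are secreted dimers. PDGF-A and PDGF-B form homodimers or a heterodimer, whereas PDGF-C and PDGF-D are released as latent homodimers that extracellular proteases activate. The receptors PDGFRα and PDGFRβ are tyrosine kinases that dimerise on ligand binding and pass the signal to phosphatidylinositol 3-kinase, phospholipase C-γ and the Ras pathway. In fibroblasts and other mesenchymal cells they drive proliferation and migration. HMGA2 is a chromatin protein whose AT-hooks contact the minor groove of AT-rich DNA. ATM is a kinase that phosphorylates H2AX at its C-terminal serine, and γ-H2AX is that phosphorylated histone.

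No peak of any list lay in the DNA directly upstream of a PDGF start site in the RefSeq promoter table (GRCm38.p6, the assembly of mm10), which held windows for 4 of the 6 genes. A lack of peaks so near a start site is usual. Even within 1 kb of a start site, 10.2% of genes with a start in that table had an HMGA2, 17.5% a γ-H2AX and 9.98% an ATM peak. The 250 bases upstream of the start site are shown for Pdgfra, Pdgfc, Pdgfd and the outer of the 2 Pdgfa start sites, because they differ in base composition. Capitals mark unbroken runs of at least 6 A or T bases. Each sequence is written 5′ to 3′ on the strand of the gene. They cover chr5:75152001-75152250 (plus strand, Pdgfra), chr3:81036166-81036415 (plus strand, Pdgfc), chr9:6168236-6168485 (plus strand, Pdgfd) and chr5:138994945-138995194 (minus strand, Pdgfa).
Pdgfra: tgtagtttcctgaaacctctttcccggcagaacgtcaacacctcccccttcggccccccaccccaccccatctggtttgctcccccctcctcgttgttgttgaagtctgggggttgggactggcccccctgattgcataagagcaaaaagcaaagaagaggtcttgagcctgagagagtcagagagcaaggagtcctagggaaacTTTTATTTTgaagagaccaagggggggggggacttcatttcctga
Pdgfc: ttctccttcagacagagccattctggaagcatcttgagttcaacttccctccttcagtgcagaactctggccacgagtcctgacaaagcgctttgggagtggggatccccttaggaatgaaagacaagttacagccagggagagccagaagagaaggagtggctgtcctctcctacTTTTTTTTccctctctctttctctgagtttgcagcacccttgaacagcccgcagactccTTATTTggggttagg
Pdgfd: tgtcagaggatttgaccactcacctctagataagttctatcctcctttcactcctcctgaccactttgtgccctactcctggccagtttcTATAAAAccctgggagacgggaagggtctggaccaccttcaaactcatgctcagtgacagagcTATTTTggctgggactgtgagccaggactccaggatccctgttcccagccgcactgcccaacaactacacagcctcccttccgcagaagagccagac
Pdgfa: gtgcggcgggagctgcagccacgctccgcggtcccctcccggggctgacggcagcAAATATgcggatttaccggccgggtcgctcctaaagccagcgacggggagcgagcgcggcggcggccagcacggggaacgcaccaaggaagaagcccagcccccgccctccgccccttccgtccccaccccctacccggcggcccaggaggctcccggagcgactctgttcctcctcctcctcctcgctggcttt

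The Pdgfa window was the poorest in A and T, at 27.6%, with a single 6-base AT run. The other 3 stood near the median of 47.6% over all 32851 promoter windows of this length, at 45.6% for Pdgfra, 49.2% for Pdgfc and 46.4% for Pdgfd. Their longest AT runs were 9, 8 and 7 bases in the same order. A run of at least 6 bases occurred in 66.9% of all windows. On either strand, the letters GGGCGG occurred 2 times in the Pdgfa window and not in the other 3, against 32.7% of all windows. The letters TATAAA occurred once, in Pdgfd and inside an AT run, against 12.4% of all windows. These matches describe the letters of the windows and are not binding sites.

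Across the bodies of the 6 genes and 10 kb beyond either end, called loci here, the lists held 165 peaks: 66 of HMGA2, 62 of γ-H2AX and 37 of ATM. Expected were 47.9, 40.9 and 37.8 peaks in the same order. Each expected number is the mean over every circular rotation of a list along its chromosome. HMGA2 had a ratio of observed to expected of 1.38 (95% exact Poisson interval 1.06 to 1.75), γ-H2AX one of 1.51 (1.16 to 1.94) and ATM one of 0.978 (0.689 to 1.35). The intervals cover counting error only, and neighbouring peaks need not be independent. With the expected number taken from the peak density within 1 Mb on either side of each locus, the HMGA2 ratio was 1.26 (0.973 to 1.60), an interval that takes in 1, that of γ-H2AX 1.57 (1.20 to 2.01) and that of ATM 0.946 (0.666 to 1.30). Without Pdgfd, the longest locus, the HMGA2 ratio was 1.07 (0.714 to 1.53, 29 peaks against 27.2 expected), while that of γ-H2AX was 1.58 and that of ATM 0.839. Most of the HMGA2 excess over the family thus lay at Pdgfd, in this 1 library.

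**Figure D1:**
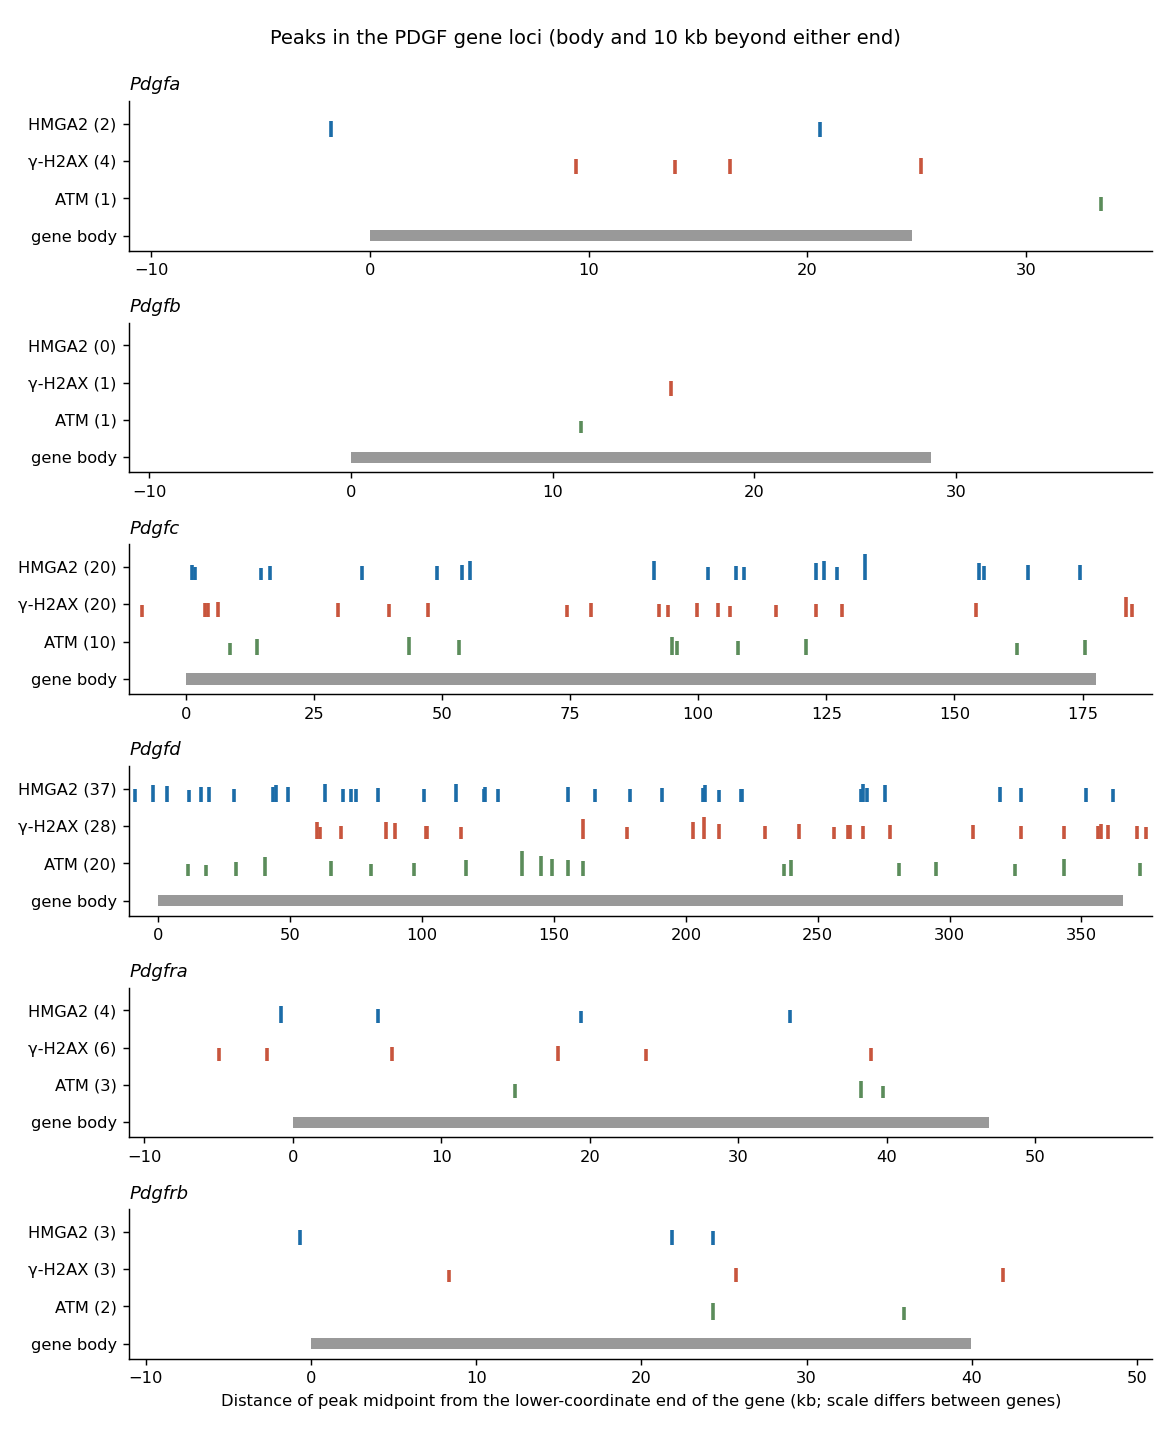
Position of every peak in the 6 loci, as distance in kb of its midpoint from the lower-coordinate end of the gene, with 1 row per antibody (number of peaks in brackets) and the gene body as a grey bar. The height of a mark is proportional to the peak's score, and the horizontal scale differs between genes. Pdgfb has a single γ-H2AX and a single ATM peak, whereas Pdgfd carries 85 marks.

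Pdgfb apart, every member had peaks of all 3 antibodies in its locus, 5 of 6 genes against 54.9% of all protein-coding genes. Every member had a γ-H2AX and an ATM peak somewhere in its locus, as did 79.2% and 77.7% of all protein-coding genes, and 5 of 6 had an HMGA2 peak, against 74.6%. A longer locus takes in more peaks at any gene, and these shares were not computed for genes of like length. They therefore show nothing particular to the family. More peaks than expected were found at 3 members for HMGA2 (34.4% of all protein-coding genes), at 4 for γ-H2AX (46.7%) and at 2 for ATM (40.7%). Against the density within 1 Mb the numbers were 4 for HMGA2 (43.1% of the 21275 protein-coding genes with 1 Mb of the mapped span on both sides), 4 for γ-H2AX (48.1%) and 1 for ATM (43.9%). For HMGA2 this turned the direction at 3 members, Pdgfa and Pdgfrb to above 1 and Pdgfc to below 1, and for ATM at Pdgfc. Members had median ratios of 0.928 (HMGA2), 1.64 (γ-H2AX) and 0.822 (ATM), against 0.701, 0.936 and 0.870 over all protein-coding genes. The ratio depends on length. Among the 3139 protein-coding genes with loci longer than 100 kb the medians were 0.961, 1.13 and 1.00. Of the 18 pairs of gene and antibody, 2 had an interval wholly above 1, HMGA2 at Pdgfd and γ-H2AX at Pdgfc, and 0 had one wholly below 1. Such an interval was found at 4.71% (HMGA2), 6.63% (γ-H2AX) and 2.35% (ATM) of all protein-coding genes. Among loci over 100 kb, where both of these genes belong, it was found at 16.0%, 17.7% and 4.81%. Against the density within 1 Mb, γ-H2AX at Pdgfc no longer had an interval above 1, and γ-H2AX at Pdgfd did, beside HMGA2 at Pdgfd. By that measure such an interval was found at 5.60%, 5.76% and 2.25% of protein-coding genes, and at 15.7%, 13.9% and 4.61% of those with loci over 100 kb.

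**Figure D2:**
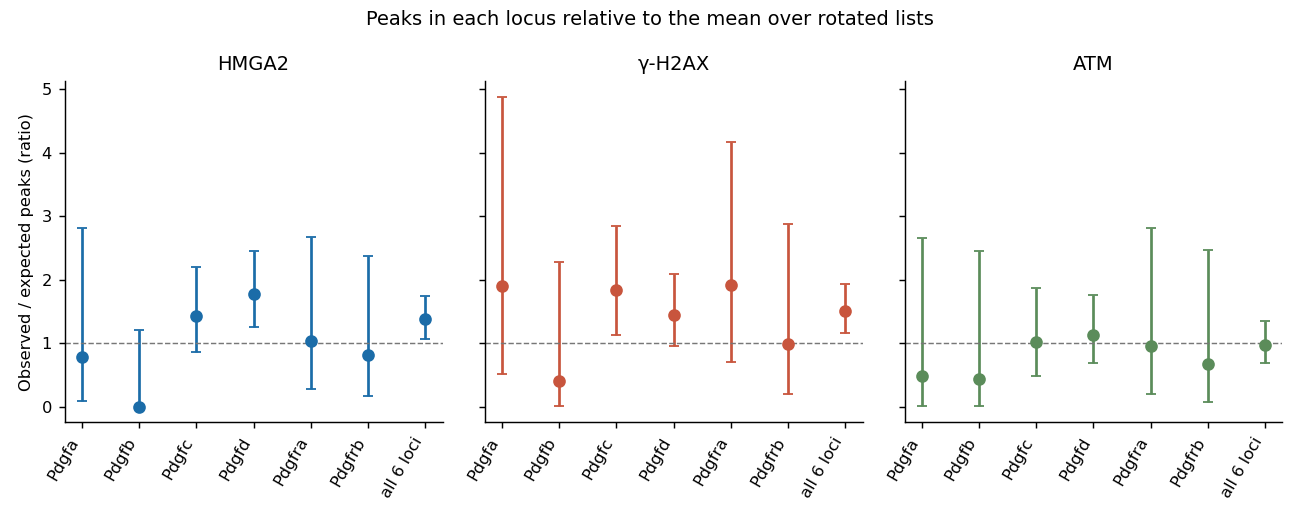
Ratio of observed to expected peaks in each locus and over all 6 loci, by antibody. Points are ratios, bars are 95% exact Poisson intervals of the count (counting error only), and the dashed line is a ratio of 1. Over all 6 loci γ-H2AX stands at 1.51 and HMGA2 at 1.38, and ATM stands at 0.978.

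Pdgfa encodes the A chain and lies on chromosome 5 at 138976014 to 139000792, on the minus strand. Its locus held 2 HMGA2 peaks (2.57 expected), 4 γ-H2AX peaks (2.10 expected) and 1 ATM peak (2.09 expected). From the density within 1 Mb on either side 1.37 HMGA2 peaks were expected, which puts the count above it (ratio 1.46, interval 0.177 to 5.27) rather than below. Within the gene lay 3 γ-H2AX peaks, with scores of 25.5, 23.9 and 25.5. A peak's score was given by the authors as -10 log10 of the MACS p, and their threshold corresponds to a score of 20. The remaining γ-H2AX peak, at 139001107 to 139001271 (score 26.9), lay 315 bp beyond the upstream end of the gene and was the nearest peak to any annotated end in the family. The RefSeq start sites lie further inside, at 138994281 and 138994944. Nearest to the outer site, 138994944, was an HMGA2 peak at 138996516 to 138996657 (score 25.3), 1572 bp upstream. Nearest to the inner site was the γ-H2AX peak at 138992387 to 138992593 (score 25.5), 1688 bp downstream. The ATM peak lay outside the gene, 14411 bp from the outer start site. No other annotated gene reached into this locus.

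Pdgfb, the gene of the B chain and the cellular counterpart of the v-sis oncogene, carried the fewest peaks. Its locus on chromosome 15 (gene at 79995865 to 80024614) held 0 HMGA2 peaks against 3.06 expected, and the upper bound of the exact Poisson interval of a count of 0 is 3.69. It held 1 γ-H2AX peak at 80011638 to 80011812 (score 25.2, 2.45 expected) and 1 ATM peak at 80007185 to 80007354 (score 20.8, 2.27 expected). Both lay inside the gene, more than 11 kb from its nearer end. From the density within 1 Mb on either side, 1.66 HMGA2 peaks were expected. Pdgfb was one of the 25.4% of protein-coding genes without an HMGA2 peak in the locus.

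Pdgfc, which encodes a latent ligand with a CUB domain, spans 177.6 kb of chromosome 3 (81036416 to 81214040, plus strand). It held 20 HMGA2 peaks against 14.0 expected (ratio 1.42, interval 0.870 to 2.20), 20 γ-H2AX peaks against 10.9 (1.84, 1.12 to 2.84) and 10 ATM peaks against 9.86 (1.01, 0.486 to 1.87). Within 1 Mb on either side HMGA2 peaks were also dense. Against the density within 1 Mb on either side the HMGA2 ratio was 0.936 (0.572 to 1.45), below 1, and the γ-H2AX ratio 1.60 (0.980 to 2.48), with an interval that takes in 1. All 20 HMGA2 peaks lay within the gene body, and the nearest to the start site was 1108 bp downstream, at 81037524 to 81037665 (score 25.3). The nearest γ-H2AX peak was 3676 bp and the nearest ATM peak 8643 bp downstream.

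The highest-scoring peak of the whole family was an HMGA2 peak in Pdgfc, at 81168865 to 81169087, with a score of 44.9. Of all HMGA2 peaks, 1.09% scored as high. The gene had 3 other HMGA2 peaks above 30, with scores of 33.3, 33.1 and 32.8, and the remaining 16 lay between 20.3 and 28.7. Its highest γ-H2AX peak (34.5) was outside the gene, 5695 bp beyond the downstream end, and its highest ATM peak (30.9) lay past the middle of the body. With the body divided into 4 equal parts, the third from the upstream end held the most peaks of every antibody, 8 of HMGA2, 8 of γ-H2AX and 4 of ATM, against 3, 3 and 1 in the second. A stretch of 35.8 kb from 81091976 to 81127764 had no HMGA2 and no ATM peak but 2 γ-H2AX peaks.

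Pdgfd, the other latent CUB-domain ligand, is the longest member, at 365.9 kb on chromosome 9 (6168363 to 6534284, plus strand). It held 37 HMGA2 peaks against 20.7 expected (ratio 1.78, interval 1.26 to 2.46), 28 γ-H2AX peaks against 19.4 (1.45, 0.961 to 2.09) and 20 ATM peaks against 17.6 (1.14, 0.696 to 1.76). Against the density within 1 Mb on either side the ratios were 1.58 (1.12 to 2.18), 1.79 (1.19 to 2.59) and 1.08 (0.659 to 1.67). The HMGA2 peaks had a median score of 23.8, as in the whole HMGA2 list, and a highest score of 31.0, and 3 of the 37 reached 30. The start site was flanked by an HMGA2 peak 2211 bp upstream, at 6166084 to 6166275 (score 27.8).

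Along Pdgfd, long stretches lacked peaks of a single antibody. From the upstream edge of the locus to 60.1 kb inside the gene there were 10 HMGA2 and 4 ATM peaks and no γ-H2AX peak, a stretch of 70.1 kb, and the nearest γ-H2AX peak on the upstream side lay 46158 bp before the start site. Over 4 equal parts of the body, from upstream to downstream, HMGA2 had 13, 8, 9 and 5 peaks, γ-H2AX 5, 5, 9 and 7, and ATM 6, 7, 2 and 4. The longest stretch without ATM, 75.9 kb from 6329631 to 6405578, held 8 HMGA2 and 5 γ-H2AX peaks. Upstream of it lay the highest ATM peak of the family, at 6306041 to 6306135 with a score of 43.6. ATM peaks of 34.5, 29.3, 28.4 and 27.1 followed, the last at the edge of the stretch. These stretches were singled out after their values were seen and are a description, with no test. The gene Ddi1, which encodes an aspartic protease of the ubiquitin system, lies within Pdgfd and carried an ATM peak (score 22.5).

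Pdgfra, on chromosome 5 at 75151322 to 75198206 (plus strand), encodes the α receptor. It held 4 HMGA2 peaks (3.83 expected), 6 γ-H2AX peaks (3.13 expected) and 3 ATM peaks (3.12 expected). An HMGA2 peak at 75150398 to 75150643, with a score of 29.8, lay 679 bp before the annotated end of the gene and 1608 bp upstream of the start site whose window is printed above. The other HMGA2 peaks lay within the gene and scored 23.8, 20.9 and 22.7. The γ-H2AX peaks scored 20.2 to 24.4, and the nearest to the start site was 2600 bp upstream, on the far side of the HMGA2 peak. A further γ-H2AX peak upstream (score 22.5) fell in the long non-coding RNA gene Gm19583. The ATM peaks were all inside the gene, the highest (29.8) at 75189523 to 75189632.

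Pdgfrb, the β receptor gene on chromosome 18 (61045127 to 61085067), held 3 HMGA2 peaks (3.70 expected), 3 γ-H2AX peaks (3.05 expected) and 2 ATM peaks (2.93 expected). From the density within 1 Mb on either side 2.07 HMGA2 peaks were expected, fewer than were found (ratio 1.45, interval 0.298 to 4.23). Its HMGA2 peak at 61044368 to 61044504 (score 26.3) lay 623 bp outside the lower-coordinate end, and within the neighbouring protein-coding gene Gm52351, so that it cannot be assigned to either gene alone. The other HMGA2 peaks scored 25.4 and 24.1. At 61069396 to 61069581 an ATM peak (score 27.9) covered the HMGA2 peak of score 24.1, with 177 bp in common. The γ-H2AX peaks scored 20.9, 24.8 and 24.3, the last lying outside the upper-coordinate end.

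Over the family, 2 of 6 members had an HMGA2 peak within 1 kb of an annotated end, against 17.9% of protein-coding genes, and these were the 2 receptor genes. For γ-H2AX it was 1 member, Pdgfa, against 23.3%, and for ATM 0 against 16.1%. No test was made on these counts of 6 genes. Within 1 kb of a start site of the promoter table, 0 of 4 members had a peak of any antibody. Among all genes with such a start 10.2% had an HMGA2, 17.5% a γ-H2AX and 9.98% an ATM peak. With 4 genes a count of 0 cannot be told from these shares. No region of either promoter list, 2220 for γ-H2AX and 866 for ATM, fell in any of the 6 loci. Among all protein-coding genes, 14.4% had a γ-H2AX promoter region in the locus and 5.79% an ATM one. How the authors chose these promoters is not given in the sources used here.

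**Figure D3:**
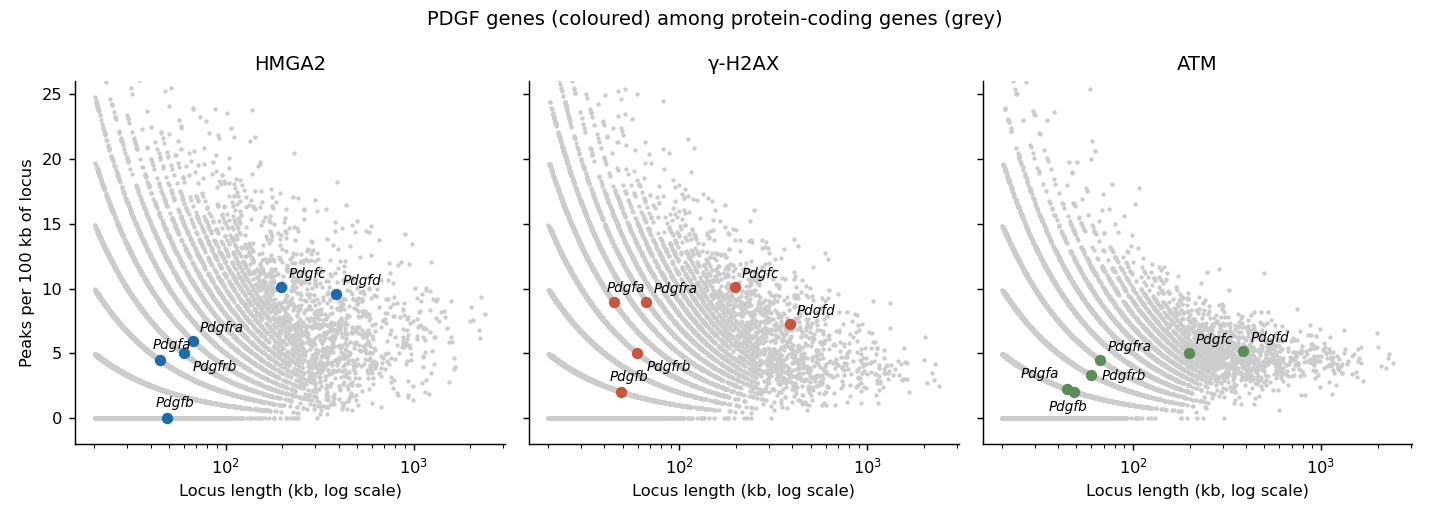
Peaks per 100 kb of locus against locus length in kb (log scale) for all protein-coding genes (grey) and the 6 PDGF genes (coloured), by antibody. Genes above 26 peaks per 100 kb (HMGA2 38, γ-H2AX 34, ATM 26) are not drawn. Grey curves are whole numbers of peaks, and the PDGF genes lie inside the cloud in every panel.

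Per 100 kb of locus, γ-H2AX peaks numbered 10.1 at Pdgfc, 8.97 at Pdgfra, 8.93 at Pdgfa, 7.26 at Pdgfd, 5.00 at Pdgfrb and 2.05 at Pdgfb. HMGA2 peaks followed another order, 10.1 at Pdgfc, 9.59 at Pdgfd, 5.98 at Pdgfra, 5.00 at Pdgfrb, 4.47 at Pdgfa and 0 at Pdgfb. For ATM the range was narrower, with 5.18 at Pdgfd, 5.06 at Pdgfc, 4.49 at Pdgfra, 3.34 at Pdgfrb, 2.23 at Pdgfa and 2.05 at Pdgfb. The intervals of neighbours in each order overlapped. Pdgfb was lowest in each list, and for γ-H2AX its ratio interval (0.0103 to 2.28) overlapped that of every other member.

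Scores in the loci were close to those of the whole lists. HMGA2 peaks had a median of 24.2 against 23.8 in the list, γ-H2AX peaks 23.4 against 23.6 and ATM peaks 24.7 against 23.6. A score of 30 or more was reached by 7 of 66 HMGA2 peaks (10.6% against 11.6% of the list), 3 of 62 γ-H2AX peaks (4.84% against 10.3%) and 6 of 37 ATM peaks (16.2% against 10.2%). All 16 of them belonged to Pdgfc or Pdgfd, and the highest elsewhere was 29.8. These 2 genes held 50 and 85 of the 165 peaks, so few such scores would be looked for at the other members. Counting such peaks alone, the γ-H2AX ratio was 0.690 (interval 0.142 to 2.02), so no surplus was found among the stronger peaks, although 3 peaks leave a wide interval.

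**Figure D4:**
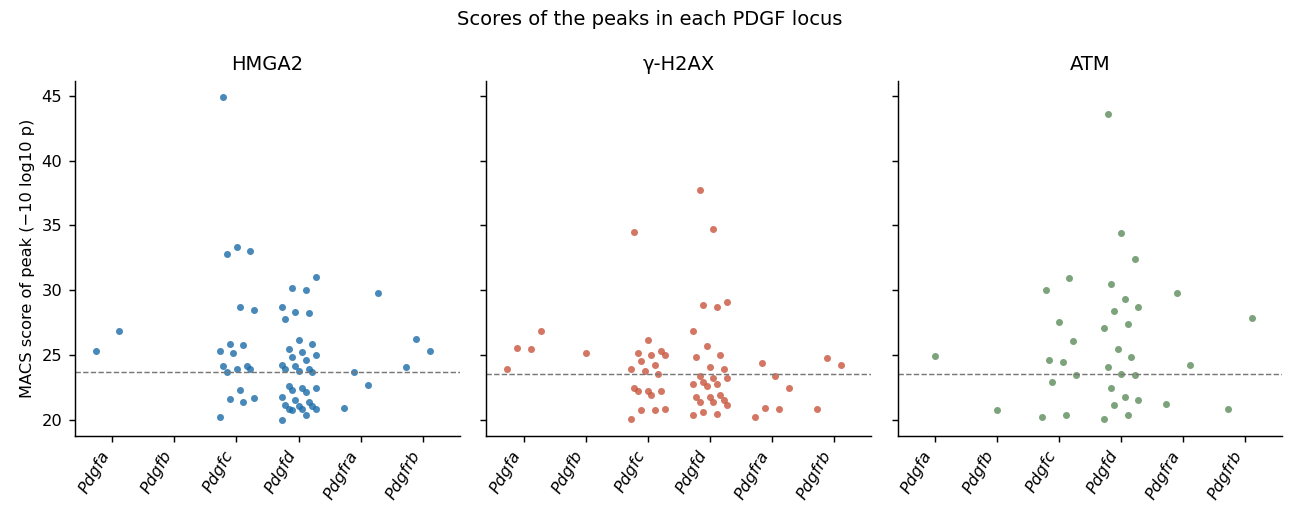
Score of each peak (-10 times log10 of the authors' p) in the 6 loci, by gene and antibody, spread sideways for legibility. The dashed line is the median of the whole list, at 23.8 for HMGA2 and 23.6 for γ-H2AX and ATM. Scores above 30 occur in Pdgfc and Pdgfd, which hold most of the peaks, with highest values of 44.9 for HMGA2 and 43.6 for ATM.

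Few peaks of different antibodies shared bases. An HMGA2 peak overlapped a γ-H2AX peak at 4 of 66 sites, 6.06% (95% exact binomial interval 1.68 to 14.8), against 2.67% of the whole HMGA2 list. Of these 4, 1 lay in Pdgfc, at 81159273 to 81159398, where the HMGA2 peak (28.5) and the γ-H2AX peak (23.6) had 116 bp in common. The other 3 lay in Pdgfd. In 1 of them, HMGA2 (30.2) and γ-H2AX (21.4) peaks ended at the same base, 6435684, with 178 bp in common. In another the highest γ-H2AX peak of the family (37.7, at 6375062 to 6375203) met the edge of an HMGA2 peak (24.0) over 22 bp. HMGA2 and ATM overlapped at 2 of 66 sites, 3.03% (0.369 to 10.5) against 2.42% of the list, in Pdgfrb as described and in Pdgfd at 6323471 to 6323637 over 155 bp. γ-H2AX and ATM overlapped at 1 of 62, 1.61% (0.0408 to 8.66) against 2.68%, in Pdgfd over 66 bp. No site had peaks of all 3, against 0.120% of the whole list, and with a limit of 3 counts for a count of 0 (not an exact interval) 0 of 66 allows a share of up to 4.55%. Each exact interval contains the share of the list.

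Other genes of PDGF signalling were examined as a list of 80 genes, all of which matched the annotation. More peaks than expected were found in the loci of 69 of them for γ-H2AX (86.3%, against 46.7% of protein-coding genes), 43 for HMGA2 (53.8% against 34.4%) and 38 for ATM (47.5% against 40.7%). These shares depend on length, for which the list was not matched. Of the 3139 protein-coding genes with loci longer than 100 kb, 1818 (γ-H2AX), 1497 (HMGA2) and 1587 (ATM) had more peaks than expected. The median ratios were 1.74, 1.04 and 0.955, beside 1.64, 0.928 and 0.822 for the PDGF genes themselves and 0.936, 0.701 and 0.870 for all protein-coding genes. Within 1 kb of an end, 23 had a γ-H2AX peak (28.8% against 23.3%), 18 an HMGA2 peak (22.5% against 17.9%) and 10 an ATM peak (12.5% against 16.1%). No gene of the list had all 3 there, against 1.12% of protein-coding genes.

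The highest HMGA2 peaks at ends lay at Nras, a Ras GTPase (40.1), and Kitl, the ligand of the Kit receptor (39.7). For γ-H2AX they were Kdr, a receptor of vascular endothelial growth factor (47.5), Lrp1, a co-receptor that binds PDGFRβ (38.6), and Nck1, an adaptor (38.1). For ATM they were Plat, the tissue plasminogen activator that cleaves latent PDGF-C (33.3), Shc1, an adaptor (31.5), and Crkl, another adaptor (27.5). The receptors of the same class as the PDGF receptors, Kit, Csf1r and Flt3, together had 3 HMGA2 peaks in their loci against 13.8 expected. They had 10 γ-H2AX peaks against 11.3 and 10 ATM peaks against 11.2. For HMGA2 the other groups had 291 peaks against 196 expected (adaptors and enzymes), 90 against 65.9 (inhibitors) and 58 against 52.4 (related receptors). Related ligands had 34 against 25.1, co-receptors and ligand-binding or ligand-processing proteins 27 against 24.5, and transcription factors and targets 18 against 19.1. The group of Kit, Csf1r and Flt3 is therefore a selected example, unlike most of the list. All these expected numbers are means over rotations, and none from the density within 1 Mb is given for these genes. Kit, the receptor of stem cell factor, named here after its values were seen, had 0 HMGA2 peaks against 5.82 expected. The list includes genes of other pathways as well, and its members were not chosen for an equal length.

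The genes most like the long members in their 3 peak counts, among protein-coding genes with a locus length within 10%, were Ppme1 and Zcchc2 for Pdgfra, each with the identical counts of 4, 6 and 3 for HMGA2, γ-H2AX and ATM among 1341 candidates. For Pdgfd they were Csgalnact1 (36, 30 and 21) and Dock4 (37, 29 and 16) among 143, and for Pdgfc Mrtfa (20, 23 and 12) and Fbxw7 (17, 18 and 10) among 353, with a summed difference of 5 that 5 candidates had. The likeness rests on 3 libraries.

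The labelled cell type could not be checked against transcript levels, since the data are peak lists. Of 6 genes typical of fibroblasts, HMGA2 peaks lay within 1 kb of an end at Col3a1 and Vim and ATM peaks at Thy1 and Fn1, with no γ-H2AX peak at any of the 6. Among all protein-coding genes, 17.9% had an HMGA2, 23.3% a γ-H2AX and 16.1% an ATM peak there. With 6 genes these counts cannot be told from those shares, and they say nothing about the cell type.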

How the data were processed

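MACS14 peak calling was run by the authors on every wild-type list separately, with model building switched off, p below 0.01 and shifts of 30 bp, per the labels. The submitters' processing notes give the mm10 build and list Bowtie2, HOMER, SAMtools and Trimmomatic with no version. The control of the calls is not given in the sources used here. The deposited score of each peak is the authors' own and was used within a list only. The authors' promoter regions (other unit: start and end alone) carry no value. Depth per library is unknown.

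Loci were gene bodies with 10 kb on either side, from RefSeq GRCm38.p6, which is mm10. Peaks sharing at least 1 bp were counted with Python 3.11.15, NumPy 2.4.6, pandas 2.3.3 and SciPy 1.17.1. Expected numbers were means over all circular rotations between the outermost peaks of a chromosome, computed exactly and tested on simulated data. Intervals were exact, at 95%, for counting error only. With 1 library per antibody no test was made. Start sites were known for 4 of 6 genes, so both annotated ends served for windows of 1 kb.

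Every member was described, with each peak near an end, each shared peak and the highest peaks. Pathway genes were named by the 3 highest end peaks per antibody (1 gene is not reported here), and similar genes as the 2 nearest in peak counts for loci over 60 kb. The family is defined by gene names alone, but it and the lists were chosen with earlier results of these data known. Alternatives varied the flank, window, score, overlap, merging, local density and the longest locus. Counts of members against the local density were added after the data were seen.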

Additional observations from a re-analysis of the deposited data

How the results depend on the processing

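No paired analysis was possible because each antibody had 1 wild-type library and no test was made. Of 49 alternatives, 34 left a value inside the interval of its main value, or a number of genes within 1.5 times. With peaks of score 30 or more, the observed-to-expected ratio was 0.690 for γ-H2AX (3 peaks, interval 0.142 to 2.02) and 1.52 for ATM (6 peaks, 0.557 to 3.31). That of HMGA2 was 1.28 (7 peaks, 0.515 to 2.64), and each of these intervals takes in 1. No member had an HMGA2 or γ-H2AX peak of that score within 1 kb of an end (0 in each case). Each of the 3 overlap shares was 0%, out of 7, 7 and 3 peaks, which are too few to show a change. Shares of all genes and of the whole lists at that score were not computed. Windows at gene ends decided the number of members found there: HMGA2 had 0 of 6 within 500 bp, 4 within 2 kb and 5 within 5 kb, γ-H2AX had 3 within 2 kb and 5 within 5 kb, and ATM had 2 within 5 kb. Shares of all protein-coding genes were computed for windows of 1 kb only, and a wider window takes in more peaks at any gene. The counts at other windows therefore show nothing particular to these members. The overlap of γ-H2AX with ATM was 0% when 50% of the γ-H2AX peak had to be covered. Against the density within 1 Mb, an alternative chosen after seeing the data for numbers of members, 1 member in place of 2 had more ATM peaks than expected, and the directions that turned are given with the results. Among the other alternatives, HMGA2 had a ratio of 1.26 with that density, 1.07 without Pdgfd and 1.50 for gene bodies without flank, and γ-H2AX stayed between 1.49 and 1.58. Causes were not tested. Single libraries, unknown depth and input libraries not used here limit every count, and assembly gaps within the rotated span were not removed.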
